A study of Schmidtea mediterranea with 24 samples.

Results

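A tail cut from a planarian keeps many transcripts of the whole animal and lacks others. The 150 transcripts described here are those whose level dropped most in *control(RNAi)* tails of *Schmidtea mediterranea* relative to intact *control(RNAi)* animals at all of 6, 12 and 24 hours post amputation (hpa), and they are called tail-depleted below. They were taken from 13156 transcripts that carry a SmedASXL number and no gene name and that reached a median of 5 CPM (counts per M counts of a library) in at least 1 group, out of 82478 such rows and 82669 rows in all. Each transcript was ranked by the smallest of its 3 drops, as group medians of log2(CPM + 0.5) in the *control(RNAi)* libraries. Values of the *control(RNAi)* libraries therefore chose the members and are given below only as a description, whereas the *yki(RNAi)* libraries had no part in the ranking and were tested. They had a part in the minimum, which 3 of the 150, SmedASXL_006161, SmedASXL_010913 and SmedASXL_061342, reached through *yki(RNAi)* intact animals only, so these 3 are left out of the counts and medians of the tested comparison with intact animals.

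RNA was sequenced from 24 libraries in 8 groups of 3 replicates, A, B and C: *yki(RNAi)* tails at 6, 12 and 24 hpa, *yki(RNAi)* intact animals, *control(RNAi)* tails at the same times and *control(RNAi)* intact animals. All animals were of the clonal asexual strain CIW4, had 3 RNAi feedings, were kept in a high-salt treatment, and received 60 Gy of irradiation 15 days after the last feeding, so no group was unirradiated. For *control(RNAi)* the columns of the count table name GFP, a jellyfish protein, as the target. Intact animals were collected 24 hours after irradiation, the time at which the tails were cut, so each comparison of tails with intact animals contrasts a body region with the whole body, a wound with none, and a later with an earlier time after irradiation, and these cannot be told apart. A library held RNA pooled from 15 tails or from more than 8 intact animals, and in such bulk RNA fewer cells of a type and less RNA per cell cannot be told apart.

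Yorkie is the transcriptional coactivator at the end of the Hippo pathway, a kinase cascade that limits tissue growth in many animals. Planarians rebuild whole bodies from fragments by means of adult stem cells called neoblasts, which irradiation removes. The head holds the brain and the eyes, the trunk the pharynx, and a tail fragment lacks what the head and trunk held until it regenerates. A transcript made only in those regions would drop out of tails, whereas a transcript made everywhere would keep its level.

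Library totals lay between 11.02 and 23.6 M counts. The *yki* transcript stood at 12.4 to 19.8 CPM over the 12 *yki(RNAi)* libraries and at 78.1 to 119 CPM over the 12 *control(RNAi)* libraries, with no overlap. Several tail libraries stood apart from their replicates in the tail-depleted transcripts themselves. *yki(RNAi)* 24 hpa B was the highest of its 3 replicates for 137 of the 150, although for 33.5% of all transcripts past the minimum, and *yki(RNAi)* 6 hpa B for 107, against 33.6% of all transcripts. Replicate C was the highest for 100 in *yki(RNAi)* tails at 12 hpa, against 24.0% of all transcripts, and for 98, 85 and 91 in *control(RNAi)* tails at 6, 12 and 24 hpa, against 33.1%, 22.4% and 35.2%. Among *yki(RNAi)* intact animals replicate A was the highest for 109, against 41.0% of all transcripts. Calls and median fold changes of the members in *yki(RNAi)* tails against intact animals are given below with and without 6 hpa B and 24 hpa B. So are the counts in bands of percent of the intact level. Group medians of CPM, summed levels and counts of members without overlap are given with all libraries.

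The transcripts were depleted in tails, and few of them were absent. In *yki(RNAi)* tails the median over the 150 of their median CPM was 1.96, 0.846 and 1.33 at 6, 12 and 24 hpa, against 25.0 in *yki(RNAi)* intact animals. Tails of *control(RNAi)* animals had 2.98, 2.27 and 2.33, against 33.9 in *control(RNAi)* intact animals. The highest of the 3 group means in *control(RNAi)* tails was under 1% of the intact mean for 14 transcripts, between 1% and 5% for 13, between 5% and 10% for 44, between 10% and 20% for 46, and over 20% for 33. The same counts in *yki(RNAi)* tails were 4, 20, 79, 31 and 16, and without 6 hpa B and 24 hpa B they were 18, 55, 44, 21 and 12. Those of *control(RNAi)* tails were not repeated without single libraries, and 1 high library can lift a group mean. SmedASXL_005730 held 0.266, 20.9 and 0% in *control(RNAi)* tails A, B and C at 6 hpa, and 0% in each at 12 and 24 hpa. Only 22 transcripts exceeded 5% of their intact level in all 18 tail libraries, and 11 exceeded 10% in all of them, whereas a single tail library held 19 to 118 transcripts over 10%. At the other end, 42 had 0 counts in at least 1 tail library and 13 had 0 counts in 9 or more of the 18.

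**Figure D1:**
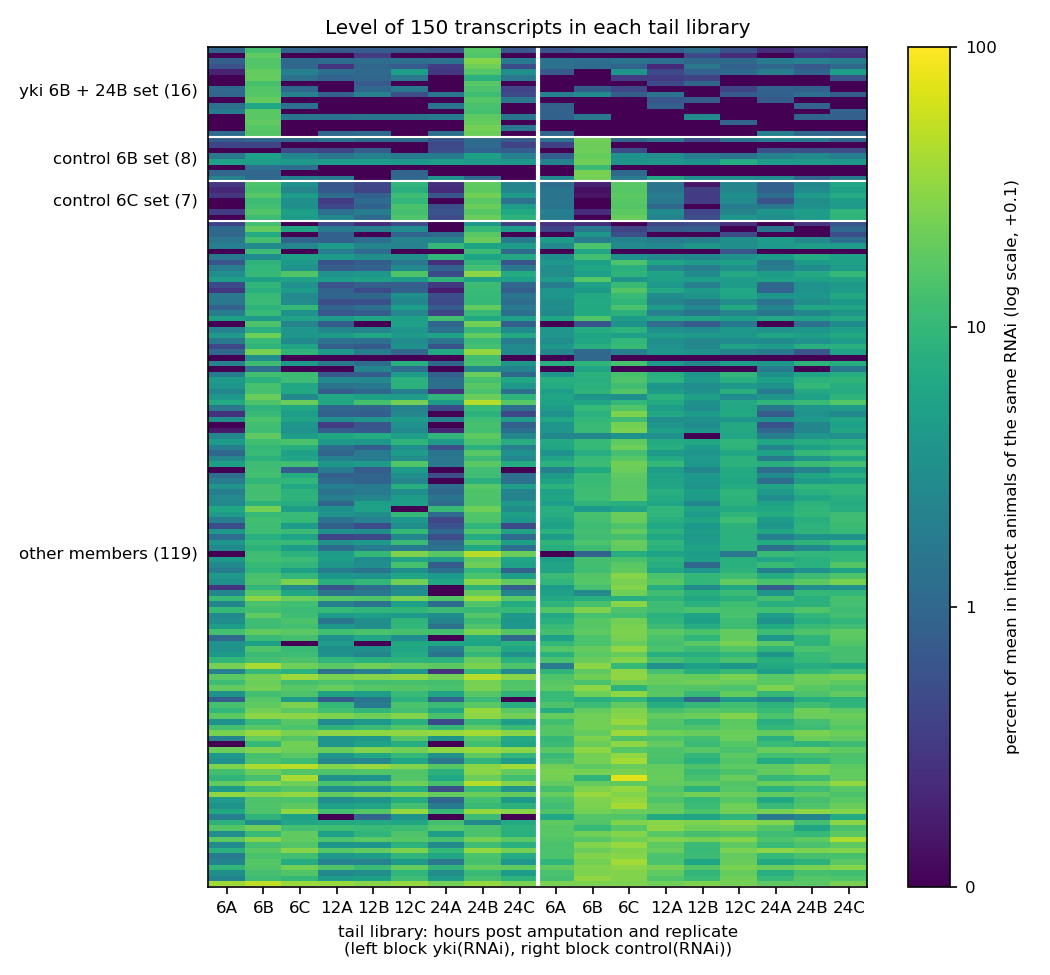
Level of each of the 150 transcripts (rows) in each of the 18 tail libraries (columns), as a percent of the mean in intact animals of the same RNAi on a log colour scale, with *yki(RNAi)* to the left of *control(RNAi)*. White lines part the sets of 16, 8 and 7 transcripts that stand out in single libraries from the other 119, and columns *yki(RNAi)* 6B and 24B are the brightest in the first set.

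Summed over the 150, the level gives the size of the drop in each library. In *yki(RNAi)* tails the sum was 759 ± 409, 429 ± 209 and 675 ± 580 CPM at 6, 12 and 24 hpa, against 9402 ± 526 CPM in *yki(RNAi)* intact animals (SD, n = 3 each). In *control(RNAi)* tails it was 1580 ± 694, 961 ± 236 and 993 ± 265 CPM, against 12421 ± 524 CPM in *control(RNAi)* intact animals (SD, n = 3 each). Every tail library lay below every intact library, and among tails the spread between replicates was as large as the differences between times. As a percent of the intact sum, *yki(RNAi)* tails A, B and C held 3.33, 11.9 and 9.0 at 6 hpa, 3.19, 3.37 and 7.13 at 12 hpa, then 2.45, 14.2 and 4.91 at 24 hpa. *control(RNAi)* tails A, B and C held 7.24, 12.5 and 18.4 percent at 6 hpa, 8.33, 5.61 and 9.26 at 12 hpa, then 5.81, 8.10 and 10.1 at 24 hpa. As such a percent, the widest range within a group was that of *yki(RNAi)* tails at 24 hpa.

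**Figure D2:**
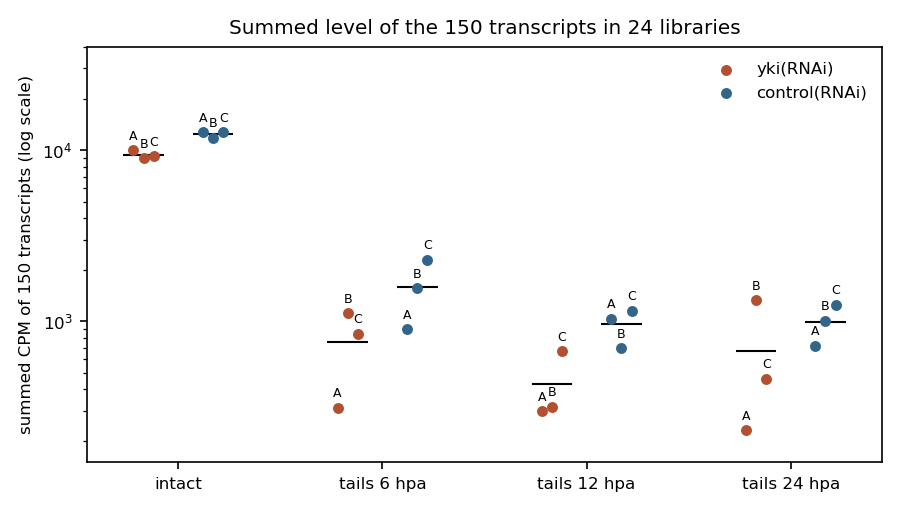
Summed CPM of the 150 transcripts (log axis) in each of the 24 libraries, with *yki(RNAi)* left of *control(RNAi)* at each state. Points are libraries with their replicate letter and bars are group means, and every tail library sits below every intact library.

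The transcript with the largest drop was SmedASXL_007088, which an earlier list of wound genes contains without a gene name. It had 0.657, 9.84 and 0.630 CPM in *yki(RNAi)* tails A, B and C at 6 hpa, 0.476, 0.486 and 0.483 at 12 hpa, then 0.392, 12.7 and 0.427 at 24 hpa, against 92.2, 65.0 and 71.0 in *yki(RNAi)* intact animals. In *control(RNAi)* tails it had 0.560, 0.769 and 0.848 CPM at 6 hpa, 0.729, 1.20 and 0.508 at 12 hpa, then 0.158, 0.306 and 0.232 at 24 hpa, against 112, 114 and 94.1 in *control(RNAi)* intact animals. Of 18 tail libraries, 16 were at 1.20 CPM or less, and *yki(RNAi)* 6 hpa B and 24 hpa B stood far above them. Its fitted log2 fold change over *yki(RNAi)* intact animals was −4.34 (SE 0.534), −7.31 (SE 0.175) and −4.11 (SE 0.690) at 6, 12 and 24 hpa (adjusted p = 0.000155, 9.91e-14 and 0.00101, edgeR quasi-likelihood test with Benjamini-Hochberg adjustment). Without the B tail it was −6.84 at 6 hpa and −7.52 at 24 hpa.

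The transcript with the highest intact level was SmedASXL_007120, which kept a readily counted remnant. It had 21.3, 63.4 and 60.2 CPM in *yki(RNAi)* tails A, B and C at 6 hpa, 17.6, 16.7 and 56.1 at 12 hpa, then 5.55, 84.2 and 28.9 at 24 hpa, against 599, 501 and 550 in *yki(RNAi)* intact animals. In *control(RNAi)* tails it had 58.6, 91.8 and 137 CPM at 6 hpa, 61.2, 32.2 and 60.5 at 12 hpa, then 44.4, 64.4 and 73.1 at 24 hpa, against 796, 667 and 701 in *control(RNAi)* intact animals. In tails the replicates overlapped between times and between the RNAi groups, and *yki(RNAi)* tails at 24 hpa had both the lowest and a high value. The log2 fold change over *yki(RNAi)* intact animals was −3.49, −4.23 and −3.83 at 6, 12 and 24 hpa, and without the B tail it was −3.73 at 6 hpa and −5.004 at 24 hpa. The other 9 of the 10 highest, SmedASXL_004874, SmedASXL_004240, SmedASXL_018763, SmedASXL_005654, SmedASXL_015307, SmedASXL_078982, SmedASXL_009762, SmedASXL_006744 and SmedASXL_015921, had log2 fold changes between −4.44 and −2.51 at 6 hpa, between −6.47 and −2.30 at 12 hpa and between −4.73 and −2.09 at 24 hpa, the smallest in SmedASXL_006744 each time.

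In the *yki(RNAi)* libraries, which had not ranked the transcripts, the members were lower in tails than in intact animals at each time. The edgeR quasi-likelihood test called 147 of the 147 that reached the minimum in *control(RNAi)* animals lower by at least 2-fold at 6, 12 and 24 hpa, with Benjamini-Hochberg adjustment over all transcripts tested, where 2.31%, 2.95% and 3.47% of all transcripts tested were called lower and 0.484%, 3.23% and 6.18% higher. For all 147 every tail library lay below every intact library at each time, where 14.7%, 17.4% and 21.9% of all transcripts tested did. The median log2 fold change over the 147 was −3.81, −4.89 and −3.92 at 6, 12 and 24 hpa, beside −0.0013, 0.0059 and 0.0039 over all transcripts tested. It ranged from −9.18 to −1.26 at 6 hpa, from −11.25 to −1.66 at 12 hpa and from −9.36 to −1.58 at 24 hpa. The 3 left out had log2 fold changes of −7.17, −1.77 and −3.77 at 6 hpa in SmedASXL_010913, SmedASXL_006161 and SmedASXL_061342. The weakest calls were SmedASXL_017424 at 6 hpa (adjusted p = 0.00133), SmedASXL_081108 at 12 hpa (1.95e-05) and SmedASXL_017381 at 24 hpa (0.00468), from edgeR's quasi-likelihood test with Benjamini-Hochberg adjustment.

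Without the B tails all 147 were still called lower at 6 and 24 hpa, where 2.12% and 3.58% of all transcripts were called lower, and the median log2 fold change became −4.38 and −5.27. The fold changes of members without counts in a group are no bounds. Of these, 8 of the 147 had 0 counts in all *yki(RNAi)* tails at 12 hpa and 1 at 24 hpa, and set against a floor of 3 counts over the group SmedASXL_005730 was at least 331-fold lower at 12 hpa and SmedASXL_019770 at least 84.4-fold lower at 24 hpa than in *yki(RNAi)* intact animals. A count of 0 in all 3 libraries of that group allows up to 0.0466 CPM at 12 hpa, which covers counting error only. With those transcripts at their bound the medians over the 147 were −4.89 and −3.92.

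**Figure D3:**
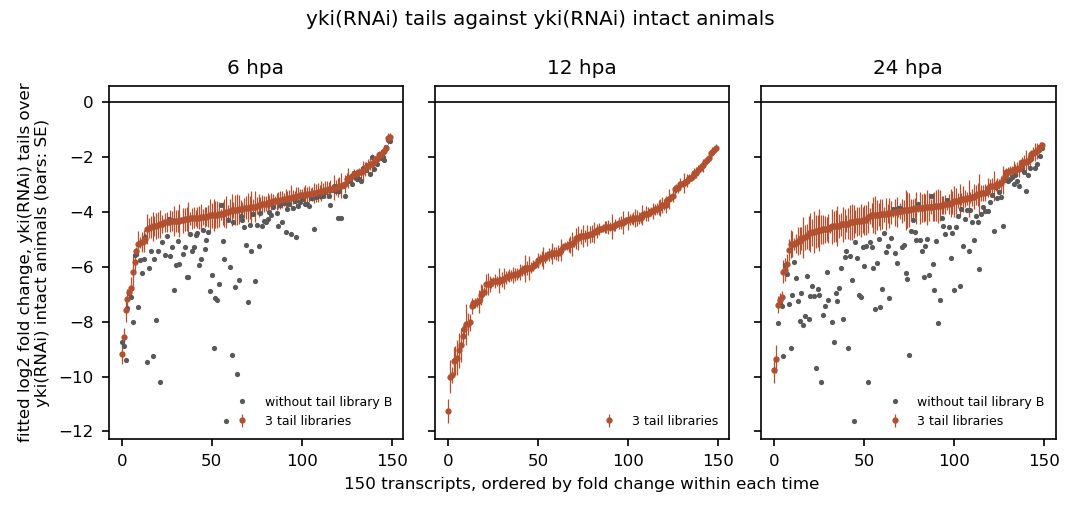
Fitted log2 fold change of *yki(RNAi)* tails over *yki(RNAi)* intact animals for the 150 transcripts at 6, 12 and 24 hpa, ordered by size within each time, with bars for the SE. Dark points give the fit without tail library B at 6 and 24 hpa, and all points lie under 0.

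Ranking all 13156 transcripts by the same measure in the *yki(RNAi)* libraries put 130 of the 147 among the first 150, and all of them among the first 287, the last being SmedASXL_006306. The smallest of the 3 drops was at least 1.06 on the log2 scale for each of the 147 in *yki(RNAi)* libraries and had a median of 3.18. Over all 13276 transcripts past the minimum, named ones included, the median was −0.12, and 2.34% had a smallest drop over 1.

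Among the members with the smallest drop in *control(RNAi)* libraries, SmedASXL_011934, SmedASXL_014254 and SmedASXL_013854 lay just inside the limit, with smallest drops of 1.82, 1.82 and 1.796. SmedASXL_058849, SmedASXL_013078 and SmedASXL_015467 lay just outside, with 1.79, 1.76 and 1.76. The limit therefore falls in a continuous run of values. The last member, SmedASXL_013854, had 8.34, 11.4 and 7.95 CPM in *yki(RNAi)* tails A, B and C at 6 hpa, 7.71, 6.46 and 7.54 at 12 hpa, then 5.21, 7.53 and 5.59 at 24 hpa, against 27.0, 20.5 and 20.1 in *yki(RNAi)* intact animals. This transcript had the smallest change of the 150 at 6 and 12 hpa, and its log2 fold change over *yki(RNAi)* intact animals was −1.26 (SE 0.139) at 6 hpa, −1.66 (SE 0.115) at 12 hpa and −1.90 (SE 0.143) at 24 hpa.

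A few members varied little from tail to tail. For 9 of the 150 the highest of the 18 tail libraries was under 3 times the lowest in percent of the intact level. SmedASXL_015919 held 12.5, 19.0 and 17.0% of its intact level in *yki(RNAi)* tails A, B and C at 6 hpa, 12.3, 13.6 and 13.5% at 12 hpa, then 12.1, 25.0 and 15.5% at 24 hpa. It held 13.1, 17.8 and 25.4% in *control(RNAi)* tails at 6 hpa, 17.1, 14.0 and 18.8% at 12 hpa, then 11.5, 14.9 and 18.0% at 24 hpa, a range of 2.22-fold over all tails. SmedASXL_016234 ranged from 11.6 to 23.5%, or 2.02-fold. These transcripts had a steady remnant in tails, unlike the sets that follow.

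The remaining variation between tail libraries held 3 sets, all defined after their values were seen. The first and the second are members at 5% or more of the intact level in the libraries named and at least 3 times their highest value in any other tail. In the first set, 16 transcripts stood out in *yki(RNAi)* 6 hpa B and 24 hpa B together. In these libraries they held 5.84 to 27.4% of the intact level, and in the other 16 tails of either RNAi at most 4.75%, with medians of 0 to 1.16% per transcript. SmedASXL_005743 had 0, 3.83 and 0 CPM in *yki(RNAi)* tails A, B and C at 6 hpa, 0, 0.0486 and 0 at 12 hpa, then 0, 3.16 and 0 at 24 hpa, against 24.2, 18.6 and 20.5 in *yki(RNAi)* intact animals. It was at 0 in 11 of the 18 tails, so its log2 fold changes of −4.02 at 6 hpa and −4.36 at 24 hpa rest on the B tails, and at 12 hpa the value was −9.94.

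Of the 10 members with the largest drop in *control(RNAi)* tails, 6 belong to the first set: SmedASXL_007088, SmedASXL_005743, SmedASXL_017381, SmedASXL_017382, SmedASXL_005847 and SmedASXL_013851. SmedASXL_017381 and SmedASXL_017382, which are neighbours in number, held 15.3 and 15.7% in *yki(RNAi)* 6 hpa B and 27.4 and 21.6% in 24 hpa B. SmedASXL_012247, named calpain 9 (a calcium-dependent protease in vertebrates) in the earlier wound list, held 16.0 and 11.6% there. Over all 13276 transcripts past the minimum, named ones included, the same definition picked only these 16, and low values elsewhere are what the ranking selects.

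The tails in which the set stood out also held nearly every other member. Of the 150 transcripts, 129 lay between 5 and 30% of the intact level in *yki(RNAi)* 6 hpa B and 127 in 24 hpa B. In the other 16 tails 27 to 107 did, the most in *control(RNAi)* 6 hpa B. In *yki(RNAi)* 6 hpa B and 24 hpa B 1 and 2 had 0 counts, against 11 to 25 with 0 counts in the other 16 tails. The 30 members of largest drop had a median of 12.7% and 14.4% of the intact level in these libraries, against 0.369 to 1.58% in the others. Low values in *control(RNAi)* tails ranked these 30, and some belong to the first set, so part of this contrast was set in advance. For the other 120 the medians were 12.4% and 14.2% in these libraries. In the other tails they were 1.35 to 17.9%, the highest in *control(RNAi)* 6 hpa C. Across the 150 transcripts the correlation of log2(CPM + 0.5) with the mean of *yki(RNAi)* intact animals was 0.914 and 0.904 in 6 hpa B and 24 hpa B, and 0.528 to 0.875 in the other tails with their own intact mean. This is a description over transcripts, which share a library and are not independent replicates. The profile of the members in these libraries was thus closer to that of intact animals than in the other tails. Of the 7 named transcripts that met the same limit, replicate B was the highest of 3 for 6 at 6 hpa and for 4 at 24 hpa. A mucin had 0.404, 1.99 and 1.07 CPM in *yki(RNAi)* tails A, B and C at 6 hpa and 0.0560, 1.63 and 0.237 at 24 hpa, and 1 of 2 spondins had 0.556, 1.39 and 0.873 at 6 hpa and 0.280, 1.11 and 0.332 at 24 hpa. Among head transcripts *ndk* had 3.59, 4.02 and 2.86 CPM at 6 hpa and 3.87, 3.74 and 4.27 at 24 hpa. For *sfrp-1* the values were 1.36, 2.04 and 1.65 at 6 hpa and 1.63, 1.32 and 1.14 at 24 hpa, and for *wnt2-1* 0.960, 0.795 and 0.727 at 6 hpa and 1.121, 1.00 and 1.14 at 24 hpa. B was the highest for *ndk* and *sfrp-1* at 6 hpa and for none of these 3 head transcripts at 24 hpa. These are 3 transcripts at 0.727 to 4.27 CPM, and single values of the other anterior transcripts are not given. The source of the extra counts in these libraries was not tested.

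The second set of 8 transcripts stood out in *control(RNAi)* 6 hpa B alone, at 10.6 to 24.2% of the intact level against at most 7.08% in any other tail. SmedASXL_018153 had 0.708, 0.894 and 0.970 CPM in *yki(RNAi)* tails A, B and C at 6 hpa, against 81.3, 120 and 116 in *yki(RNAi)* intact animals. In *control(RNAi)* tails at 6 hpa it had 0.700, 11.9 and 0.471 CPM, against 50.9, 49.6 and 61.6 in *control(RNAi)* intact animals. The transcript was nowhere raised in the *yki(RNAi)* tails, B included, and its log2 fold change there was −6.92 (SE 0.199), −6.51 (SE 0.179) and −7.11 (SE 0.234) at 6, 12 and 24 hpa. SmedASXL_005730, SmedASXL_006717, SmedASXL_013711, SmedASXL_014029, SmedASXL_019770, SmedASXL_010913 and SmedASXL_025952 made up the rest, and all but SmedASXL_019770 held 19.2% or more in *control(RNAi)* 6 hpa B.

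By their definitions the first and the second set cannot share a library, so low values of either in the libraries of the other are no result. The 120 named transcripts past the minimum were searched for those at least 2-fold higher in *control(RNAi)* 6 hpa B than in both other replicates. They were *ndk* with 2.43, 7.78 and 2.07 CPM in replicates A, B and C, and the stem cell gene *piwi-1* with 3.41, 13.9 and 4.29. The last was a titin, the giant protein of muscle, with 7.05, 16.2 and 4.15. The 6 transcripts of the stem cell list, *piwi-1* included, summed to 473 to 501 CPM over these replicates. The part of the named transcripts in the level of the 8 was not tested.

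The third set of 7 transcripts was near 0 in *control(RNAi)* 6 hpa B and high in 6 hpa C, and was defined by at least 10% of the intact level in C and at most 0.1 times the level of A in B. SmedASXL_012097, a member of the 10 with the largest drop, held 0.209, 14.2 and 3.41% of its intact level in *yki(RNAi)* tails A, B and C at 6 hpa, 0.538, 0.335 and 9.27% at 12 hpa, then 0.155, 17.9 and 2.03% at 24 hpa. *control(RNAi)* tails held 1.08, 0.0869 and 17.1% at 6 hpa, 1.31, 0.0526 and 2.28% at 12 hpa, then 0.758, 2.30 and 5.97% at 24 hpa. Replicates B and C of *control(RNAi)* tails at 6 hpa were thus the lowest but 1 and the highest but 1 of all 18 tails. The set as a whole had medians of 13.2, 11.7 and 17.9% in *yki(RNAi)* 6 hpa B, 12 hpa C and 24 hpa B, of 17.1% in *control(RNAi)* 6 hpa C, and of at most 5.97% in each other tail. SmedASXL_013733, SmedASXL_006770, SmedASXL_002629, SmedASXL_051528, SmedASXL_048827 and SmedASXL_068695 completed it, and over all transcripts past the minimum 10 met the definition. A transcript named lectin-like had 596, 237 and 1518 CPM in *control(RNAi)* tails A, B and C at 6 hpa, with C highest and B lowest as in the set. Unlike the set it was not depleted in tails. Its median was 354 CPM in *control(RNAi)* intact animals and 596, 1599 and 1076 CPM in *control(RNAi)* tails at 6, 12 and 24 hpa. Its part was not tested.

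**Figure D4:**
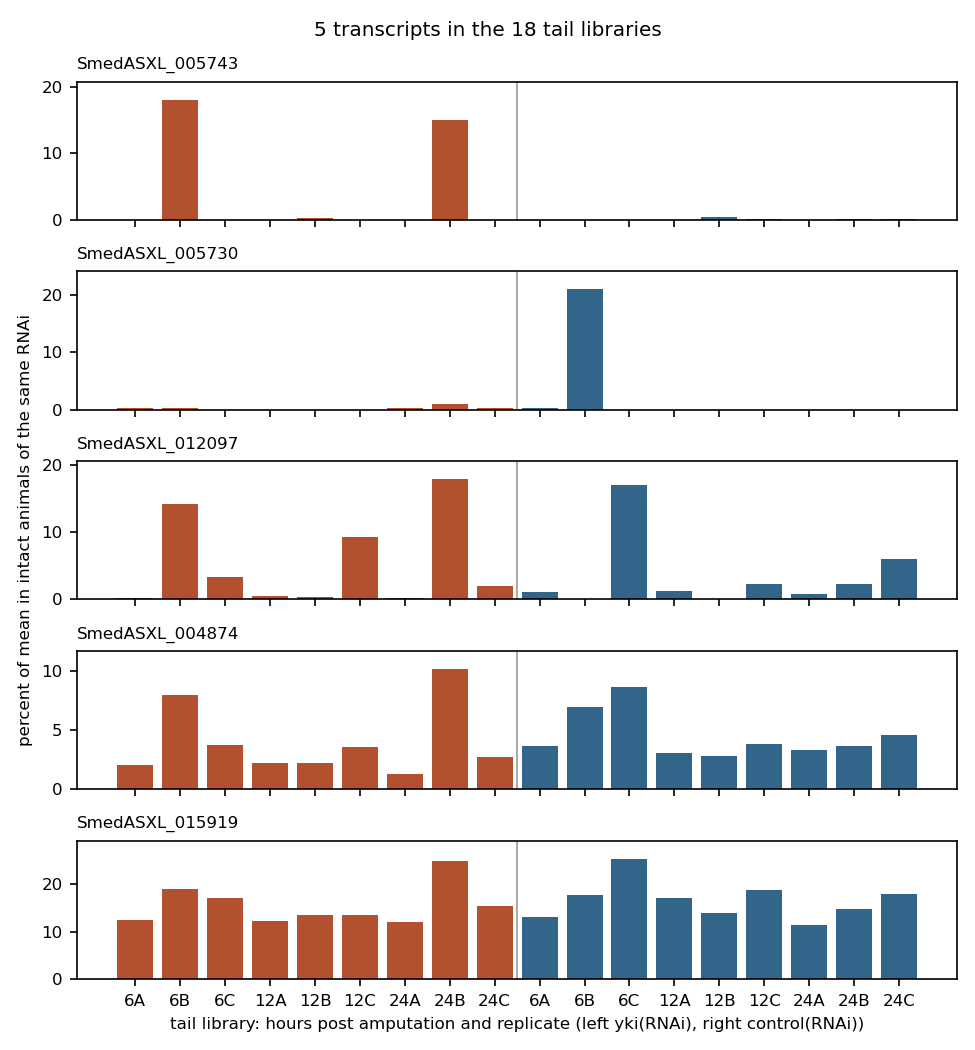
Percent of the intact level of the same RNAi in each of the 18 tail libraries for 5 transcripts, 1 each of the sets of 16, 8 and 7, SmedASXL_004874 from the other 119, and SmedASXL_015919 from those with a steady remnant. Bars are single libraries with *yki(RNAi)* at the left, and the high bars fall in *yki(RNAi)* 6B and 24B for SmedASXL_005743 and in *control(RNAi)* 6B for SmedASXL_005730.

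Summed over the other 119 transcripts, the remnant differed between libraries, although single members such as SmedASXL_079584, at 0 in most tails, need not follow the sum. The summed level was 3.65, 11.8 and 9.78% of the intact sum in *yki(RNAi)* tails A, B and C at 6 hpa, 3.44, 3.65 and 7.36% at 12 hpa, then 2.66, 14.0 and 5.23% at 24 hpa. In *control(RNAi)* tails it was 7.90, 13.6 and 19.5% at 6 hpa, 9.09, 6.15 and 10.1% at 12 hpa, then 6.31, 8.74 and 10.8% at 24 hpa. The order of the 3 replicates within each group was that of the sum over all 150. This is no separate result, since that sum consists mostly of the other 119. SmedASXL_004874 belonged to these, with 8.75, 33.5 and 15.7 CPM in *yki(RNAi)* tails A, B and C at 6 hpa, 9.39, 9.48 and 15.0 at 12 hpa, then 5.32, 42.9 and 11.6 at 24 hpa, against 431, 430 and 409 in *yki(RNAi)* intact animals. SmedASXL_006811, named in the earlier wound list as a dynein light chain, a small subunit of the dynein motor, had 1.21, 6.46 and 1.115 CPM at 6 hpa, 1.26, 1.798 and 1.30 at 12 hpa, then 1.57, 5.53 and 1.94 at 24 hpa, against 32.3, 26.4 and 29.8 in *yki(RNAi)* intact animals.

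Between times, the members were lower in *yki(RNAi)* tails at 12 hpa than at 6 hpa for a minority, and this rested on few libraries. Of 110 members tested, 22 were called lower and 0 higher at 12 hpa by edgeR's quasi-likelihood test with Benjamini-Hochberg adjustment, where 0.416% of all transcripts were called lower and 1.85% higher, and the median over members was −0.90 on the log2 scale. The other 40 members were too low to be tested. SmedASXL_015307 had 2.81, 2.62 and 6.04 CPM in *yki(RNAi)* tails A, B and C at 12 hpa, against 4.35, 26.4 and 17.5 at 6 hpa, so the groups overlapped. Its log2 fold change was −2.13 (SE 0.482), with an adjusted p of 0.0163 from the edgeR test. Such overlap was the rule, since 10 of the 150 had every 12 hpa library below every 6 hpa library, where 14% of all transcripts did. Without *yki(RNAi)* 6 hpa B the test called 3 lower, without 12 hpa A 3 and without 12 hpa B 0, whereas without 6 hpa A it called 55.

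From 12 to 24 hpa no shift held up. Of 98 members tested, 1 was higher and 0 lower at 24 hpa, where 0.581% of all transcripts were higher. SmedASXL_011884, singled out after its values were seen, had 2.47, 1.42 and 1.71 CPM in *yki(RNAi)* tails A, B and C at 24 hpa, against 1.13, 0.778 and 0.773 at 12 hpa. The log2 fold change was 1.06 (SE 0.268), with an adjusted p of 0.0387 from edgeR's quasi-likelihood test. The median over members was 0.70, and without 24 hpa B it was −0.21, so the direction turned with that library, whereas without 24 hpa A 23 were called higher. Among *control(RNAi)* tails 10 members had every 12 hpa library below every 6 hpa library, where 20.4% of all transcripts did, and 14 had every 24 hpa library below every 6 hpa library, where 28.3% did. From 12 to 24 hpa 16 members had every later *control(RNAi)* library higher, where 21.4% of all transcripts did, and 7 lower, where 24.9% did.

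Compared with *control(RNAi)*, the members were somewhat lower in *yki(RNAi)* intact animals, and since *control(RNAi)* values chose the members this is a description. The mean was lower in *yki(RNAi)* intact animals for 135 of 150, and for 85 every *yki(RNAi)* library lay below every *control(RNAi)* library, where 11.1% of all transcripts did. For 3 every *yki(RNAi)* library lay above, where 20.2% of all did. The median fitted log2 fold change was −0.38. A ranking by the intact level in *control(RNAi)* libraries itself favours members with a high value there. The minimum likewise favours a high value in the group through which a member reached it. The 150 here include the 3 that reached it through *yki(RNAi)* intact animals only. The size of these parts was not tested.

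The most reduced was SmedASXL_004381, with 30.1, 31.9 and 27.2 CPM in *yki(RNAi)* intact animals A, B and C, against 106, 174 and 153 in *control(RNAi)* intact animals (log2 fold change −2.30, SE 0.17). In tails at 12 hpa it had 1.95, 1.99 and 1.69 CPM in *yki(RNAi)* tails, against 41.2, 36.8 and 42.8 in *control(RNAi)* tails (log2 fold change −4.52, SE 0.102). Its *yki(RNAi)* libraries lay below all *control(RNAi)* libraries in intact animals and at each of the 3 times. It also ran against the other members in the libraries that stood apart, with 0.845 CPM in *yki(RNAi)* 6 hpa B and 0.790 in 24 hpa B, the lowest of each group of 3. SmedASXL_049784 had 2.66, 3.03 and 3.19 CPM in *yki(RNAi)* intact animals, against 9.71, 12.8 and 12.6 in *control(RNAi)* intact animals, and a log2 fold change of −1.98, SmedASXL_005416 one of −1.59, SmedASXL_048891 of −1.48, SmedASXL_079584 of −1.42 and SmedASXL_002629 of −1.22.

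At the other end, SmedASXL_018153 of the second set was higher in *yki(RNAi)* intact animals, with a log2 fold change of 0.96 (SE 0.144). SmedASXL_006161 had 8.52, 9.45 and 8.74 CPM in *yki(RNAi)* intact animals, against 4.72, 4.77 and 7.43 in *control(RNAi)* intact animals (log2 fold change 0.62, SE 0.180). It reached the minimum through *yki(RNAi)* intact animals only, so the minimum itself favoured a higher value there. In tails at 12 hpa it had 1.52, 2.04 and 1.69 CPM in *yki(RNAi)* tails, against 0.182, 0.274 and 0.212 in *control(RNAi)* tails (log2 fold change 2.86, SE 0.307), the highest value of any member fitted at that time. The next were SmedASXL_010435, SmedASXL_059179, SmedASXL_013711 and SmedASXL_016234, at 0.37, 0.31, 0.26 and 0.23.

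In tails the number of members without overlap between the RNAi groups was largest at 12 hpa, a difference between times that was not tested. A single high *yki(RNAi)* library can undo such a separation. *yki(RNAi)* 6 hpa B, 12 hpa C and 24 hpa B were the highest of their 3 replicates for 107, 100 and 137 of the 150. The counts without these libraries were not computed, so they do not order the times. At 12 hpa 71 of the 150 had every *yki(RNAi)* tail below every *control(RNAi)* tail, where 19.6% of all transcripts did, and 9 every *yki(RNAi)* tail above, where 39.6% of all did. At 6 hpa the numbers were 26 below and 5 above, where 13.7% and 23.2% of all transcripts were below and above, and at 24 hpa 10 below and 8 above, where 11.7% and 23.8% were. The 71 include 45 that also lay below in intact animals and 26 that did not, and the same split over all transcripts was not computed. The median fitted log2 fold change of *yki(RNAi)* over *control(RNAi)* tails was −1.09 over the 118 members with enough counts at 6 hpa, −1.23 over 113 at 12 hpa and −0.42 over 116 at 24 hpa. Over all 150, the median of the log2 ratio of group means, with 0.5 CPM added to each, was −0.75 at 6 hpa, −0.65 at 12 hpa and −0.09 at 24 hpa, so the order of 6 and 12 hpa depended on the members and the measure. Single libraries moved these values. At 6 hpa the median was −0.60 without *control(RNAi)* 6 hpa C, −0.69 without *yki(RNAi)* 6 hpa A and −1.57 without *yki(RNAi)* 6 hpa B. At 12 hpa it was −1.85 without *yki(RNAi)* 12 hpa C, and at 24 hpa −1.76 without *yki(RNAi)* 24 hpa B, −0.049 without 24 hpa A, −0.18 without 24 hpa C and −0.24 without *control(RNAi)* 24 hpa C.

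**Figure D5:**
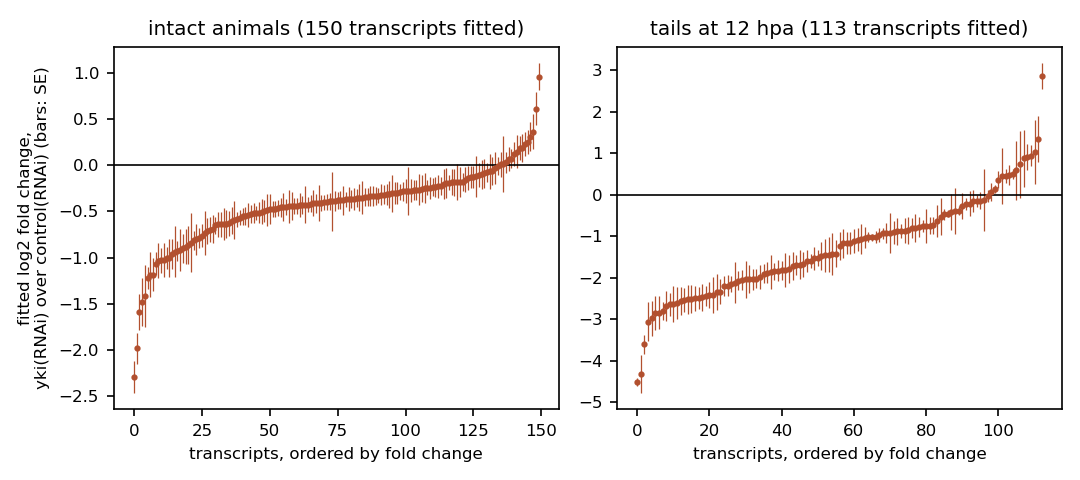
Fitted log2 fold change of *yki(RNAi)* over *control(RNAi)* in intact animals (150 transcripts) and in tails at 12 hpa (113 fitted), ordered by size, with bars for the SE. Most points lie under 0, and SmedASXL_018153 in intact animals and SmedASXL_006161 in tails at 12 hpa are the highest.

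The 150 have no gene name, so named transcripts past the same minimum show what else was lost from tails. Of 120 named transcripts, 7 met the same limit: a mucin (a gel-forming secreted protein), 2 spondins, a von Willebrand factor, *sfrp-1* (a secreted WNT inhibitor of the head tip), *ndk* (an FGF receptor-like gene of the brain region) and *wnt2-1* (a WNT ligand of the head). The mucin, whose values at 6 and 24 hpa are given above, had 0.216, 0.194 and 0.483 CPM in *yki(RNAi)* tails A, B and C at 12 hpa, against 31.4, 22.5 and 14.5 in *yki(RNAi)* intact animals. Its log2 fold change was −4.25 (SE 0.346), −6.25 (SE 0.346) and −5.15 (SE 0.481) at 6, 12 and 24 hpa, and without the B tail −4.88 at 6 hpa and −7.15 at 24 hpa. For *ndk* the values were −2.98 (SE 0.113), −3.06 (SE 0.0987) and −2.84 (SE 0.0917), with little spread between replicates.

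By region, 6 of 9 anterior patterning transcripts were called lower in *yki(RNAi)* tails than in intact animals at each time by edgeR's quasi-likelihood test with Benjamini-Hochberg adjustment: *sfrp-1*, *sfrp2*, *wnt2-1*, *ndk*, *ndk-3* and *ndk-4*. Of all transcripts tested, 2.31%, 2.95% and 3.47% were called lower at 6, 12 and 24 hpa, and 0.484%, 3.23% and 6.18% higher. At 12 hpa *notum*, a WNT inhibitor known to rise at wounds, was higher (log2 fold change 1.49, SE 0.232, adjusted p = 0.00019). Of 6 posterior patterning transcripts tested 0 were lower and 3 were higher at each time, among them *wnt11-1* and the receptor *Fzd-d* each time. This list was matched by name only and took in *wnt11-6*, also named *wntA*, whose place along the body was not checked. Its median was 29.9 CPM in *yki(RNAi)* intact animals and 32.0, 34.4 and 42.0 CPM in *yki(RNAi)* tails at 6, 12 and 24 hpa. Of 8 brain transcripts tested 4 were lower at each time: *PAX6-2* and the 3 *ndk* genes, which the anterior list also holds. The summed level of the 9 brain transcripts was 56.6 to 67.6, 57.6 to 66.4 and 59.4 to 62.5 CPM in *yki(RNAi)* tails at 6, 12 and 24 hpa, against 123 to 126 CPM in *yki(RNAi)* intact animals. That of the 9 anterior ones was 76.6 to 80.9, 75.5 to 78.0 and 67.3 to 74.96 CPM, against 155 to 169 CPM. Within a time these sums varied less between replicates, relative to their size, than the sum over the 150 did.

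Of the other lists, that for gut matched only 2 transcripts, *porcnA* and *porcn-B*, and no other gut term matched a row name. Neither was called lower in tails at any time. The gut term *nkx2.2* missed a row spelled *NXK2.2*. Its median was 131 CPM in *yki(RNAi)* intact animals and 135, 121 and 137 CPM in *yki(RNAi)* tails at 6, 12 and 24 hpa. For stem cells the calls lower were 0 of 6, 1 of 5 and 2 of 4 transcripts tested at the 3 times. Of the 11 transcripts matched for the epidermal lineage, which stem cells renew, the calls lower numbered 0, 3 and 4. The terms searched missed 8 *prog* rows spelled without a hyphen, which were added after their values were seen, and with them the calls lower were 0 of 19, 9 of 18 and 10 of 18 tested. Among those added, *prog2c* had 277, 370 and 375 CPM in *yki(RNAi)* tails A, B and C at 6 hpa, 114, 137 and 119 at 12 hpa, then 5.55, 7.90 and 8.34 at 24 hpa, against 193, 315 and 362 in *yki(RNAi)* intact animals. The 19 summed to 3038 to 3380, 1819 to 1898 and 1408 to 1424 CPM in *yki(RNAi)* tails at 6, 12 and 24 hpa, against 2596 to 3264 CPM in *yki(RNAi)* intact animals, and the 8 added to 848 to 1036, 401 to 442 and 155 to 162 CPM, against 649 to 1035 CPM. The stem cell list included *piwi-1*, which was lower at 24 hpa with a log2 fold change of −1.60 (SE 0.255, adjusted p = 0.000751, edgeR quasi-likelihood test). No row name matched the terms searched for pharynx, protonephridia or muscle, and the 1 eye transcript, *ovo*, was too low to be tested, so the tissue that the 150 come from was not identified here.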

How the data were processed

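The authors sequenced polyA-selected TruSeq libraries as single-end reads, and per the submitters' processing notes used bcl2fastq 1.8.3, Bowtie2 2.2.4 (alignment to the SmedASXL transcriptome) and DESeq2. As deposited, the count table holds raw counts per transcript for each of 2 lanes of each library. The counting tool is not given in the sources used here, and reads of near-identical transcripts could be split between them. The fold changes and p-values of 6 comparisons by the authors were not used.

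Lanes were summed. Of *yki(RNAi)* intact A only the first lane was used, since the second is damaged. The row naming no transcript, 6.31% to 7.49% of a library's counts, was left out. Each comparison used edgeR 4.0.16 (R 4.3.3) on its 6 libraries, with TMM factors, filterByExpr and the quasi-likelihood F test. Benjamini-Hochberg adjusted p under 0.05 with at least a 2-fold change was called. The SE is the fold change over the root of F. CPM used library totals, with a pseudocount of 0.5 on the log2 scale. Precision in tails is limited by low counts, where 1 count is a substantial part of a value. For *yki(RNAi)* tails against intact animals the biological coefficient of variation came to 8.83%, 6.74% and 9.72% at 6, 12 and 24 hpa. Tested on simulated data for the 12 hpa comparison over 28112 transcripts, the method called 24%, 80%, 82% and 82% of transcripts lowered 2, 4, 8 and 16-fold.

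The members, marker lists and tests were chosen with earlier results of these data known. Named individually are the 10 members of largest drop, the 10 of highest level in *control(RNAi)* intact animals, the 6 with the largest and the 6 with the smallest fold change of *yki(RNAi)* over *control(RNAi)* in intact animals, the 3 on each side of the limit, members that a wound gene list names, and named transcripts past the same limit. Members of the sets standing out in single libraries, and a few that mark an extreme, were named after their values were seen. Marker lists were matched to row names: brain, eyes, pharynx, gut, protonephridia, epidermal lineage, muscle, stem cells, anterior and posterior patterning, and secretory glands (mucin lower in *yki(RNAi)* tails at each time, lectin-like higher at 24 hpa). The labels call replicates biological and do not describe separate cultures, so p-values measure the spread between these samples. Alternatives were DESeq2 size factors, no filter, DESeq2 1.42.0, 1 fit of all 24 libraries, a replicate term, lane 1 only, leaving out each library, and other pseudocounts, minimums and averages for the ranking.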

Additional observations from a re-analysis of the deposited data

How the results depend on the processing

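All 147 members that reached the minimum in *control(RNAi)* animals stayed called lower in *yki(RNAi)* tails at 6, 12 and 24 hpa without a filter on low counts, with DESeq2 size factors, 1 fit of all 24 libraries, lane 1 only and leaving out each library in turn (147 to 147 each time). DESeq2's Wald test called 135, 147 and 138. The median log2 fold change ranged from −4.38 to −3.33 at 6 hpa, −5.69 to −4.67 at 12 hpa and −5.27 to −3.48 at 24 hpa over the fits that each leave out a library.

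The comparison of *yki(RNAi)* tails at 12 with 6 hpa depended on the processing: of 22 members called lower, no filter on low counts gave 69, DESeq2's Wald test 3 and 1 fit of all 24 libraries 1, and leaving out a library gave 0 to 55. For 24 against 12 hpa, with 1 member called higher, no filter gave 45, 1 fit of all 24 libraries 0, lane 1 only 0, and leaving out a library 0 to 23. No filter tests low members of few counts. The other causes were not tested.

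The median log2 fold change of *yki(RNAi)* over *control(RNAi)* was −1.85 without *yki(RNAi)* 12 hpa C and −1.76 without *yki(RNAi)* 24 hpa B, and over all fits that leave out a library it ranged from −0.43 to −0.36 in intact animals, −1.57 to −0.60 at 6 hpa, −1.85 to −1.11 at 12 hpa and −1.76 to −0.049 at 24 hpa. Of the 150 members, the ranking kept 144 to 150 without a *control(RNAi)* replicate, 120 with a minimum of 1 CPM and 119 with 10 CPM, 145 by the mean, and 132 in the *yki(RNAi)* libraries.

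Replicate letters were not used as pairs: deviations of same-letter libraries correlated between −0.10 and 0.23, and not every letter passed 0.1 in any comparison. Each letter matched itself best in *yki(RNAi)* tails against intact animals at 6 and 24 hpa and between the RNAi groups at 12 hpa. In the other comparisons not every letter did. With a replicate block the counts of members called lower in tails were 147 at each time, those at 12 against 6 hpa 37 lower and at 24 against 12 hpa 3 higher, and the medians of *yki(RNAi)* over *control(RNAi)* −0.38, −1.13, −1.26 and −0.71 in intact animals and at 6, 12 and 24 hpa. Depth limits the members at or near 0 counts in tails, and the filter left 40 of the 150 untested at 12 against 6 hpa and 52 at 24 against 12 hpa.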

Other observations

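The definition by which the first and the second set stood out was also applied to every transcript past the minimum in each tail library. Alone in *yki(RNAi)* 24 hpa A 8 transcripts met it, and alone in *control(RNAi)* 24 hpa A 12, of which 0 were among the 150. Alone in *yki(RNAi)* 6 hpa B and alone in *yki(RNAi)* 24 hpa B it was met by 1 transcript each, both members. In each of the other tail libraries but *control(RNAi)* 6 hpa B, whose 8 are the second set, it was met by 0.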
